A study of Nematostella vectensis with 10 samples.

Results

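The data describe the difference between apical tissue and remaining body in the mid-planula of the sea anemone *Nematostella vectensis*. They comprise 4 of the 10 libraries of the series, chosen by their labels: 2 of apical tissue (labelled larval aboral tissue) and 2 of body tissue, all from planulae of 50 to 60 h post fertilisation. The other 6 libraries came from late planulae of 75 to 85 h. They gave side-by-side values and were used to choose genes for a comparison of the apical libraries. They also entered an interaction test of stage and tissue and an alternative fit, both over all 10 libraries. The labels give no genotype, treatment or batch. By the study's methods, the apical pole was cut off motile larvae with needles, and each sample pooled the pieces of at least 50 larvae from at least 3 batches, so that each library is an average over many animals. The methods do not say whether an apical and a body library with the same number came from the same larvae, nor that replicates were separate cultures, so that the p-values below measure the spread between these samples.

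The planula is a ciliated swimming larva that moves with its apical (aboral) pole ahead. At this pole lies the apical organ, a sensory structure whose central cells bear a tuft of long cilia. In *Nematostella* the tuft depends on FGF signalling, and the study assigns the apical organ a central spot of tuft cells and a surrounding ring of larval neurons. The body piece holds the remaining ectoderm, the pharynx, the endoderm and the oral end. Gland cells, stinging cells and neurons of several peptide types lie in the body wall of cnidarian larvae.

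Of 25729 gene models counted, 22742 and 20941 had at least 1 count in apical replicates 1 and 2, and 23224 and 23062 in body replicates 1 and 2. The counts on gene models summed to 23715239 and 14364093 in the apical libraries and to 21838304 and 20227306 in the body libraries. A count of 3, taken as the smallest level a library can show, stood for 0.120 and 0.234 counts per 1000000 (CPM, after TMM scaling) in the apical libraries and for 0.126 and 0.152 CPM in the body libraries. These floors cover counting error only. Over the log2 CPM of the tested genes, Pearson's r was 0.938 between the apical libraries, 0.955 between the body libraries and 0.872 to 0.922 between tissues. By this measure apical replicate 1 was the apical library closer to the body, with r of 0.917 and 0.922 to the body libraries against 0.872 and 0.883 for apical replicate 2. Apical replicate 2 was also the library with the fewest counts, and the part of depth in these values was not tested.

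The apical libraries also differed in their content of body transcripts. To measure this, 201 genes were taken that the mid-planula apical libraries had not chosen. They were higher in the body in a fit of the late planula libraries alone, with a log2 fold change under -4. They also had a mean of at least 5 CPM in the mid-planula body libraries, which thus took part in the choice. The limits were set after the values had been seen. The median of these genes stood at 4.97% of its mean body level in apical replicate 1 and at 0.766% in apical replicate 2. Of the 201 genes, 178 (88.6%) were higher in apical replicate 1, compared with 49.5% of all tested genes. The size of the gap depended on the limit: for 399 genes with a late log2 fold change under -2 the medians were 13.002% and 7.76%. Of the 201 genes, 65 had no count in apical replicate 2 and 2 had none in apical replicate 1. Over all 20466 tested genes, 755 had no count in apical replicate 2 and 110 had none in apical replicate 1. Apical replicate 2 also had the lower total count. In the reverse direction, 138 genes that were higher in the late apical tissue, chosen with a limit of 2 and thus to be set beside the 399 rather than the 201 genes, had a median of 16.1% and 13.6% of their mean apical level in body replicates 1 and 2. The part of this difference between the apical libraries in single results was not tested, and values without each library are given where they change a result. A fit without 1 library leaves 1 library of that tissue at this stage. Calls and p-values of such fits hold no spread between replicates of that tissue.

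**Figure D1:**
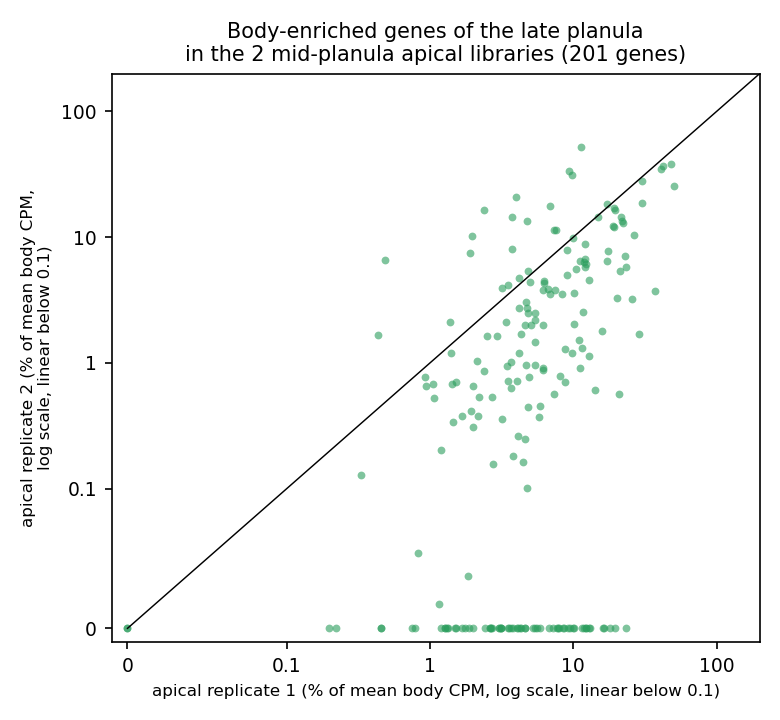
Level of 201 body-enriched genes of the late planula in mid-planula apical replicate 1 (x axis) and replicate 2 (y axis), each as a percent of the gene's mean CPM in the 2 mid-planula body libraries, on log axes that are linear below 0.1; each point is a gene and the line marks equal levels. Most points (178) lie below the line, and 65 lie at 0 on the y axis.

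The first question was which genes differed between the regions at this stage. After edgeR's filter on low counts, the quasi-likelihood test of edgeR was run on 20466 gene models in the 4 libraries, and 1100 (5.37%) were differentially expressed genes (DEGs) at an adjusted p-value under 0.05. Of these, 507 (2.48%) were apical DEGs, with the higher level in the apical tissue, and 593 (2.90%) were body DEGs. The order of these counts was reversed with limma-voom (606 apical, 586 body) and when at least 10 counts were required in every library (567 apical, 464 body), a filter that removes genes at low level in either tissue. It was also reversed when same-numbered libraries were treated as pairs (1009 apical, 932 body), a pairing that the sources do not state. The differences were larger on the body side. The log2 fold change (apical relative to body) of the apical DEGs had a median of 1.71 with quartiles of 1.34 and 2.38, and that of the body DEGs a median of -2.84 with quartiles of -4.68 and -1.79. When genes at the floor of a tissue were set to their bound, the medians were 1.71 and -2.80. With these bounds, 10 apical DEGs passed a log2 fold change of 5 and 85 body DEGs lay beyond -5. As the tissue samples were bulk RNA, a smaller number of cells of a type and less RNA per cell cannot be told apart in any of these values.

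The number of DEGs in either direction depended on the libraries of both tissues. Leaving out either body library lowered the number in both directions. Without apical replicate 1 there were 1012 body and 703 apical DEGs, and without apical replicate 2 there were 606 and 340, with the remaining apical library assumed to vary like the body libraries. Without apical replicate 1, 1011 of the 1100 DEGs were called again. Among the body DEGs themselves, 414 of 593 had the higher CPM in apical replicate 1, and among the apical DEGs 89 of 507. Over all tested genes this share was 49.5%. Between the body libraries, replicate 1 was higher for 296 of the 593 and 272 of the 507, and for 50.9% of all tested genes.

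**Figure D2:**
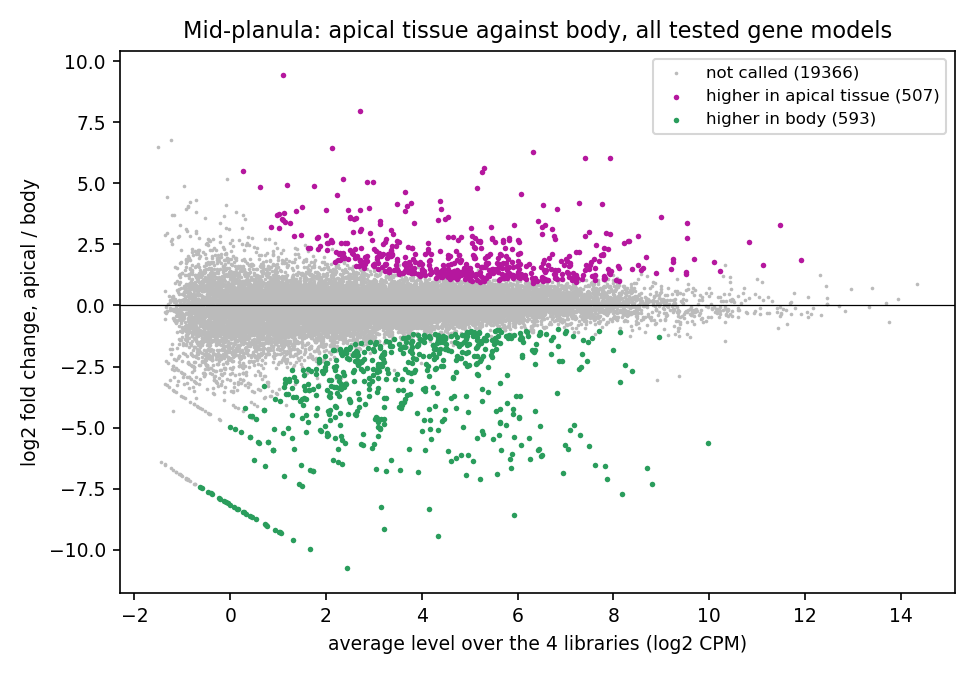
Log2 fold change of apical tissue over body (y axis) against the average log2 CPM of the 4 mid-planula libraries (x axis) for the 20466 tested gene models; magenta and green points are DEGs at an adjusted p-value under 0.05 and grey points were not called. The 593 body DEGs reach further from 0 than the 507 apical DEGs, and the lines of points at the lower left are genes with no count in either apical library.

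Few of the apical genes were confined to the apical piece. The body mean of the apical DEGs was a median of 30.5% of their apical mean (quartiles 19.2% and 39.4%), and only 19 of 507 (3.75%) had a body level under 5% of the apical one. The apical mean of the body DEGs was a median of 13.9% of their body mean (quartiles 3.53% and 28.8%), and 184 of 593 (31.0%) lay under 5%. No library of the other tissue exceeded 3 counts for 56 of the body DEGs (9.44%) and for 4 of the apical DEGs (0.789%). These shares describe genes that the same libraries selected as different.

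The balance between the regions shifted with the level of the gene. Among genes with a mean of 100 CPM or more over the 4 libraries, 102 of 1657 (6.16%) were apical and 39 (2.35%) body DEGs. From 10 to 100 CPM there were 294 apical and 277 body DEGs among 7792 genes. From 1 to 10 CPM the order was reversed, with 111 apical and 261 body DEGs among 8828 genes, and under 1 CPM there were 16 body DEGs and no apical DEG among 2189 genes. The smallest log2 fold change among the apical DEGs was 0.97 at 100 CPM or more, 0.93 from 10 to 100 CPM and 1.36 from 1 to 10 CPM.

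The genes with the most RNA were largely shared. Of the 100 genes with the highest mean CPM in the apical tissue, 80 were also among the 100 highest of the body. Of the apical 100, 9 were apical DEGs and none was a body DEG, and of the body 100, 1 was an apical and 1 a body DEG. The apical DEGs took 6.72% and 7.69% of all counts in apical replicates 1 and 2, and 2.26% and 2.01% in body replicates 1 and 2. The body DEGs took 3.34% and 3.30% of the counts in the body libraries, and 0.663% and 0.467% in apical replicates 1 and 2.

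The files and the reference used here do not pair the gene models with names. The unnamed genes with the extreme fold changes are therefore given by identifier only. NVE6050 had 112 and 50 counts in apical replicates 1 and 2 (4.48 and 3.90 CPM) and no count in either body library. Against a floor of 3 counts per library, its apical level was at least 30.1-fold higher (adjusted p = 0.000917, edgeR). At the other end, NVE20142 and NVE25193 had no count in either apical library. NVE20142 had 300 and 168 counts in body replicates 1 and 2, and its apical level was at least 59.8-fold lower (adjusted p = 6.01e-05, edgeR). For NVE25193, with 163 and 104 counts, the apical level was at least 34.3-fold lower (adjusted p = 0.000313, edgeR).

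Among the DEGs with the highest average level, NVE23664 had 4542 and 7586 CPM in the apical libraries and 1644 and 1698 CPM in the body libraries (log2 fold change 1.86, SE 0.35, adjusted p = 0.00613, edgeR). NVE13796 had 4811 and 5498 CPM in the apical and 457 and 589 CPM in the body libraries (log2 fold change 3.30, SE 0.34, adjusted p = 8.63e-05). Both genes had all apical values above all body values, which 21.9% of the tested genes showed in this direction and 23.1% in the other. NVE9071 was the body DEG with the highest level, at 2073 and 1888 CPM in the body. It stood at 75.1 CPM in apical replicate 1 and at 3.58 CPM in apical replicate 2, so that the apical libraries differed by 21.0 times (log2 fold change -5.64, SE 0.96, adjusted p = 0.00335). Its log2 fold change was -9.11 without apical replicate 1 and -4.72 without apical replicate 2. NVE1270 followed with 544 and 873 CPM in the body and 305 and 275 CPM in the apical libraries (log2 fold change -1.29, SE 0.31, adjusted p = 0.0292). The call of NVE1270 was lost without body replicate 2 (adjusted p = 0.172) and without apical replicate 2 (adjusted p = 0.129).

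The label of the apical tissue was compared with 7 genes that the study localised to the spot and 3 that it localised to the ring of the apical organ. All 10 were apical DEGs, as were 2.48% of all tested genes, with a median log2 fold change of 4.17 against -0.03 over all tested genes. The study chose these genes from these samples, so their direction is not independent evidence. All 10 were also called without any 1 library.

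Among the spot genes, *ISX-like* (NVE14554) encodes a paired-class homeodomain transcription factor. It had 414 and 551 CPM in apical replicates 1 and 2 and 4.34 and 10.3 CPM in body replicates 1 and 2. Its body mean was 1.51% of its apical mean, and its log2 fold change of 6.05 (SE 0.45, adjusted p = 1.02e-05, edgeR) ranked 7 among the 20466 tested genes. NVE27 had 7.88 and 18.4 CPM in the apical libraries, and 0 and 2 counts in the body libraries. Its apical level was at least 94.3-fold higher (adjusted p = 0.000107), and the apical replicates differed more for it than for the other spot genes, with replicate 1 at 0.428 times replicate 2.

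The unnamed spot genes NVE10492, NVE2235 and NVE18750 were alike in the apical libraries. NVE10492 had 14.08 and 14.03 CPM there and 0.337 and 0.508 CPM in the body. NVE2235 had 15.3 CPM in either apical library and 0.674 and 0.203 CPM in the body, which rest on 16 and 4 counts. NVE18750 had 26.2 and 25.6 CPM against 1.60 and 1.22 CPM. Their log2 fold changes were 5.05, 5.07 and 4.19, with SEs of 0.48, 0.54 and 0.37. Without body replicate 1, which held 16 of the body counts of NVE2235, the log2 fold change of that gene was 6.19. Without body replicate 2 it was 4.475. NVE8009 was also found in the body at 44.5 and 34.4 CPM, against 315 and 323 CPM in the apical tissue (log2 fold change 3.02, SE 0.29). NVE2832 had 131 and 216 CPM in the apical and 10.3 and 9.95 CPM in the body libraries (log2 fold change 4.10, SE 0.33). For each of the 7 genes both apical libraries lay above both body libraries, as for 21.9% of all tested genes.

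The ring genes were higher in apical replicate 2 than in replicate 1. *PoxA* (NVE14902) had 680 and 1218 CPM in apical replicates 1 and 2 and 56.3 and 99.0 CPM in body replicates 1 and 2 (log2 fold change 3.61, SE 0.40, adjusted p = 0.000146, edgeR). *Slc* (NVE8226), which the study labels a solute carrier in one place and CELSR3 in another, so that its identity is not settled here, had 275 and 551 CPM against 21.1 and 25.4 CPM (log2 fold change 4.15, SE 0.38, adjusted p = 3.62e-05). NVE4712 had 337 and 524 CPM against 47.0 and 66.4 CPM (log2 fold change 2.92, SE 0.33, adjusted p = 0.000175). The summed level of the 3 genes was 1291 CPM in apical replicate 1 and 2293 CPM in apical replicate 2, a ratio of 0.563, and the corresponding ratio for the 7 spot genes was 0.794. The tissues did not overlap for any of the 3 genes, which held in this direction for 21.9% of all tested genes.

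The study distinguishes 4 types of gland/secretory cell and placed types 1 to 3 in the outer ectoderm. It reported types 1 and 2 as enriched at the apical pole and type 3 as present throughout the animal. Type 4 it placed in the pharynx and the mesenteries, where digestive enzymes such as trypsin are secreted. At this stage all 6 markers of types 1 to 3 were apical DEGs (2.48% of all tested genes) and all 4 markers of type 4 were body DEGs (2.90% of all tested genes), and all 10 were called without any 1 library as well. The study selected these markers for their expression in the gland cell types of published single-cell data. It placed the types by in situ hybridisation and through genes enriched in the apical tissue or body of this series. The direction of the markers is therefore not independent evidence.

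For type 1, NVE22589 had 59.4 and 95.9 CPM in the apical libraries and 11.96 and 10.7 CPM in the body libraries (log2 fold change 2.78, SE 0.31). NVE12895 had 28.6 and 40.3 CPM against 7.41 and 7.06 CPM (log2 fold change 2.25, SE 0.31). The type 2 marker NVE11879 showed the largest difference of the 6, at 272 and 315 CPM in the apical and 15.8 and 16.0 CPM in the body libraries (log2 fold change 4.21, SE 0.29, adjusted p = 8.24e-06, edgeR). Its body mean was 5.40% of the apical mean. The other type 2 marker, NVE8163, kept 22.4% of its apical level in the body, with 102 and 114 CPM against 21.9 and 26.6 CPM (log2 fold change 2.16, SE 0.27). The markers of type 3 had similar ratios, with log2 fold changes of 2.09 (SE 0.32) for NVE23674 and 2.33 (SE 0.30) for NVE23675, and body means at 23.4% and 19.8% of the apical means. NVE23674 had 68.3 and 92.7 CPM in the apical and 23.8 and 13.8 CPM in the body libraries.

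The type 4 markers were the strongest body genes of these lists, with a median log2 fold change of -6.21. NVE23810 had 792 and 995 CPM in body replicates 1 and 2. In the apical tissue it had 260 counts in replicate 1 (10.4 CPM) and 2 counts in replicate 2 (0.156 CPM), a ratio between the apical libraries of 66.7 with a 95% interval of 18.3 to 554 (exact binomial, counting error only). The log2 fold change between tissues was -7.32 (SE 0.99, adjusted p = 0.000705, edgeR). It was -6.42 without apical replicate 2, and without apical replicate 1 the apical side would rest on 2 counts, under the floor of 3. NVE26086 had 319 and 454 CPM in the body and 5.48 and 2.65 CPM in the apical libraries (log2 fold change -6.53, SE 0.42). NVE9234 had 238 and 326 CPM in the body and 12.9 and 5.61 CPM in the apical libraries (log2 fold change -4.90, SE 0.41). NVE10584 did not share the excess in apical replicate 1, with 9 and 7 counts in the apical libraries (0.3599 and 0.545 CPM) against 24.4 and 27.6 CPM in the body (log2 fold change -5.89, SE 0.44). The ratio of apical replicate 1 to replicate 2 was 2.07 for NVE26086, 2.30 for NVE9234 and 0.660 for NVE10584. Summed over the 4, the level was 29.2 and 8.96 CPM in apical replicates 1 and 2 and 1374 and 1802 CPM in the body.

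**Figure D3:**
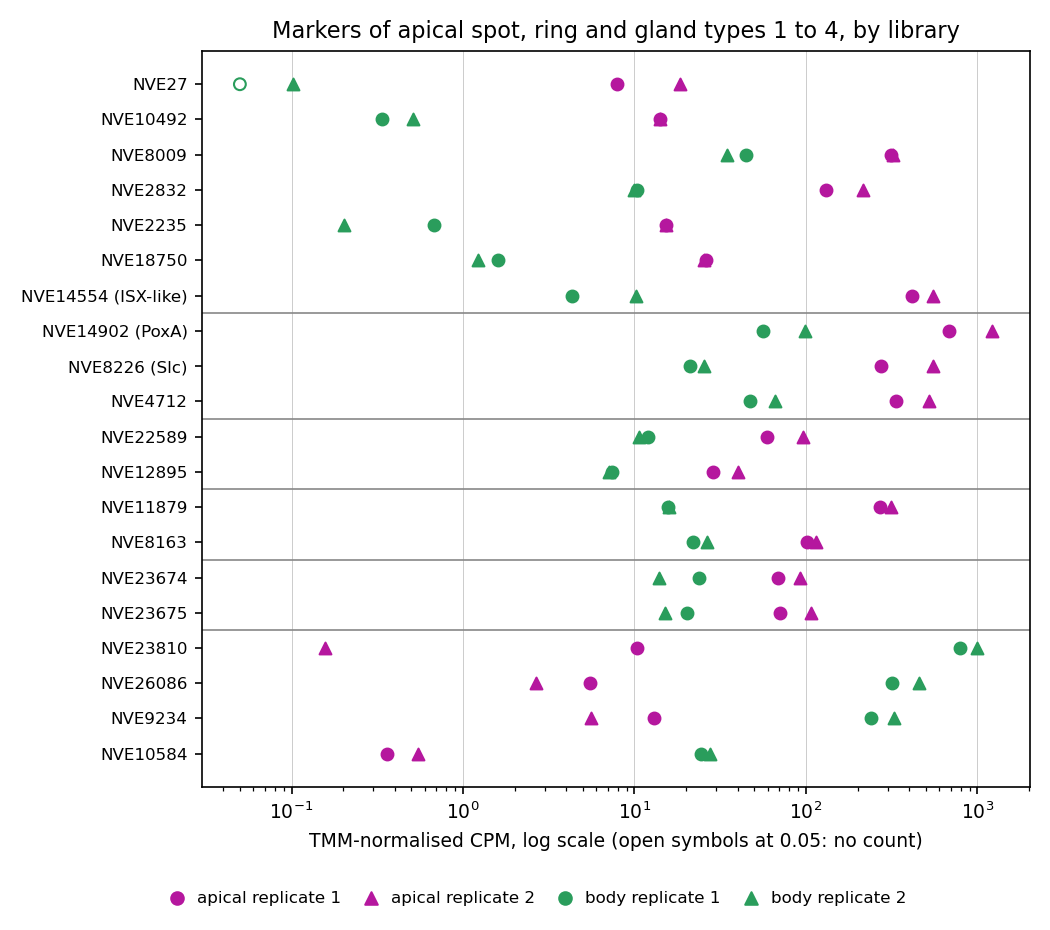
TMM-normalised CPM (log x axis) of 20 marker genes in the 4 mid-planula libraries, apical in magenta and body in green, replicate 1 as circles and replicate 2 as triangles; rows are, from the top, the spot, the ring and gland types 1, 2, 3 and 4, and an open symbol at 0.05 stands for no count. Both apical symbols lie to the right of both body symbols in the first 16 rows and to the left in the last 4, and the apical symbols of NVE23810, which stand for 260 and 2 counts, lie far apart.

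Neuropeptides are short secreted signals cut from longer precursors, and cnidarian nervous systems use many that end in an amide. Of 7 neuropeptide genes that the study names, 2 were apical DEGs, 2 were body DEGs and 3 did not pass the threshold in the mid-planula, against 2.48% and 2.90% of all tested genes in the 2 directions. The same 4 were called without any 1 library. The study displayed most of these genes for their pattern in these tissues, so their direction is not independent evidence.

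*PRGamide* (NVE226) had 235 and 456 CPM in apical replicates 1 and 2 and 80.3 and 85.8 CPM in body replicates 1 and 2. It was higher in the apical tissue with a log2 fold change of 2.06 (SE 0.33, adjusted p = 0.00237, edgeR), and its body mean was 24.0% of the apical mean. In the fit of all 10 libraries the adjusted p-value was 0.105 with a log2 fold change of 2.02. *Nv-RPamide III* (NVE3755) had 92.7 and 130 CPM in the apical and 25.3 and 9.55 CPM in the body libraries (log2 fold change 2.67, SE 0.40, adjusted p = 0.00146). Its body replicates differed by 2.65 times, and the tissues did not overlap. The log2 fold change was 3.54 without body replicate 1 and 2.12 without body replicate 2. The study gives the name *RPamide III* also to NVE3775, an identifier very close to NVE3755, and either may be a misprint for the other. NVE3775 had 13.0 and 15.3 CPM in the apical and 14.99 and 17.2 CPM in the body libraries, which overlapped. Its log2 fold change was -0.19 with a 95% interval of -0.86 to 0.48 (adjusted p = 0.866, edgeR).

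HIRamide (NVE15069) had 1.52 and 0.779 CPM in the apical and 38.6 and 24.3 CPM in the body libraries, the largest called difference among the neuropeptides (log2 fold change -4.70, SE 0.43, adjusted p = 4.06e-05, edgeR). *Nv-LWamide* (NVE9858) belongs to a peptide family that triggers metamorphosis in larvae of the hydrozoan *Hydractinia*. It had 3.08 and 2.42 CPM in the apical and 17.9 and 11.5 CPM in the body libraries (log2 fold change -2.41, SE 0.40, adjusted p = 0.00298). *Antho-RFamide type 2* (NVE7549) had overlapping levels of 31.6 and 51.4 CPM in the apical and 43.0 and 63.7 CPM in the body libraries. Its log2 fold change was -0.36, with a 95% interval of -1.03 to 0.31 (adjusted p = 0.693). The tachykinin-related gene NVE15507 had no count in either apical library and 20 and 16 counts in the body libraries. The body level was at least 4.68 times the apical floor, and the adjusted p-value was 0.0758 (edgeR), which became 0.0410 in the fit of all 10 libraries.

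The 8 genes for receptors or transmitter synthesis included 2 apical DEGs, 1 body DEG and 5 that did not pass, against 2.48% and 2.90% of all tested genes in the 2 directions. They were taken from a larger set that the study displayed for these tissues, so their direction is not independent evidence, and the calls of the 5 depended on the settings. Both apical DEGs encode receptors. The cholinergic receptor NVE26207, which senses acetylcholine, had 61.9 and 91.1 CPM in the apical and 16.9 and 22.7 CPM in the body libraries (log2 fold change 1.95, SE 0.30, adjusted p = 0.00155, edgeR). The rhodopsin-family receptor NVE334, a G protein-coupled receptor (GPCR), had 26.4 and 33.8 CPM against 6.02 and 4.06 CPM (log2 fold change 2.57, SE 0.34, adjusted p = 0.000614).

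The metabotropic glutamate receptor NVE2150 was the body DEG, with 1.72 and 2.65 CPM in the apical and 9.64 and 6.85 CPM in the body libraries (log2 fold change -1.93, SE 0.47, adjusted p = 0.0303, edgeR). Its call was lost without body replicate 1 (adjusted p = 0.214) and without apical replicate 1 (adjusted p = 0.0641). The GABA receptor NVE5469, a sensor of the inhibitory transmitter GABA, had 2.80 and 3.58 CPM in the apical and 7.33 and 11.5 CPM in the body libraries (log2 fold change -1.57, SE 0.43, adjusted p = 0.0572). Its log2 fold change was -1.86 without body replicate 1 and -1.74 without apical replicate 2. It was -1.22 without body replicate 2 and -1.39 without apical replicate 1.

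For the other 4 genes, the apical replicates lay far apart while both stayed below the body libraries, as for 23.1% of all tested genes. The decarboxylase NVE18494 had 11.7 and 3.43 CPM in apical replicates 1 and 2, against 22.4 and 16.1 CPM in the body (log2 fold change -1.33, SE 0.47, adjusted p = 0.163, edgeR). The receptor NVE20518, a GPCR, had 35 counts in apical replicate 1 and 0 in replicate 2, against 7.41 and 4.62 CPM in the body (log2 fold change -2.95, SE 0.90, adjusted p = 0.0913). The dopamine receptor NVE19409 had 3.44 and 0.623 CPM in the apical and 11.5 and 8.78 CPM in the body libraries, and its adjusted p-value lay just above the threshold (log2 fold change -2.25, SE 0.60).

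These 3 genes were higher in apical replicate 1, as were most body genes. Without apical replicate 1 the log2 fold change was -2.49 for NVE18494 and -4.01 for NVE19409, and NVE20518 would have no apical count. Without apical replicate 2 the log2 fold change was -0.72 for NVE18494, -1.555 for NVE19409 and -2.10 for NVE20518. The dopamine receptor NVE3835 had the opposite order, with 1.12 and 5.61 CPM in apical replicates 1 and 2 and 10.4 and 9.29 CPM in the body (log2 fold change -1.59, SE 0.60, adjusted p = 0.191). The log2 fold change of NVE3835 was -3.12 without apical replicate 2 and -0.81 without apical replicate 1.

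**Figure D4:**
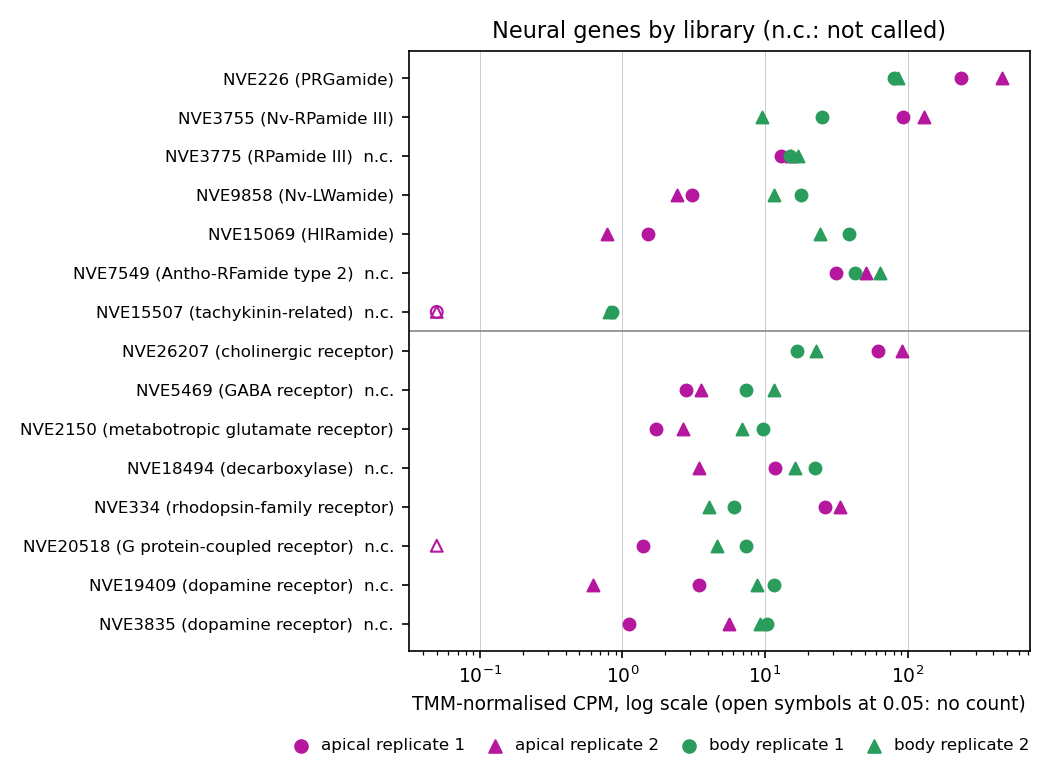
TMM-normalised CPM (log x axis) of 7 neuropeptide genes (upper rows) and 8 receptor or decarboxylase genes (lower rows) in the 4 mid-planula libraries, with colours and symbols as in the plot of marker genes; n.c. marks the 8 genes that were not called. The tissues overlap only for NVE3775 and NVE7549, and the apical replicates of NVE18494, NVE20518, NVE19409 and NVE3835 lie far apart.

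The late planula libraries, which share no library with the mid-planula comparison, were fitted alone to read the same genes at 75 to 85 h. In that fit 793 of 19950 genes (3.97%) were apical DEGs and 1210 (6.07%) body DEGs. Of the 1092 mid-planula DEGs that were also tested there, 1080 (98.9%) had the same direction, compared with 71.8% of all genes tested in both fits. The body DEGs of the mid-planula were called more often in the late planula (500 of 586, all in the same direction) than the apical DEGs (351 of 506, of which 350 in the same direction), a contrast that was not tested. For the apical DEGs the median difference (log2) was 1.71 at the earlier and 1.54 at the later stage, and for the body DEGs tested in both fits it was -2.78 and -2.98. Mid-planula values are those the genes were selected on, whereas late planula values are not.

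All 35 genes of the marker and neural lists had the same direction at both stages, compared with 71.8% of all genes tested in both fits. Of the 35, 32 were DEGs in the late fit, compared with 9.84% of all genes tested in both fits. The study drew on libraries of both stages when it chose or displayed most of these genes, so neither count is independent evidence. The 32 included 5 receptor or synthesis genes that the mid-planula libraries did not call, among them NVE19409 (late log2 fold change -3.28, SE 0.41, adjusted p = 0.000660, edgeR). *PRGamide* was the reverse case, with a late log2 fold change of 1.75 (SE 0.55) and an adjusted p-value of 0.0765.

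Whether the regional difference of a gene itself changed with the stage was tested as an interaction in a fit of all 10 libraries (edgeR's quasi-likelihood test), and 5 of 21683 genes (0.0231%) passed. All 5 were more strongly biased to the body in the late planula. An unadjusted p-value under 0.05 was reached by 875 genes, and 0.05 of the tested genes is 1084. The genes of the marker and neural lists were not among the 5.

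Of these 5 genes, 2 were already body DEGs in the mid-planula. NVE17896 had 2.28 and 0.935 CPM in the apical and 38.8 and 45.7 CPM in the body libraries (log2 fold change -4.64, SE 0.41, adjusted p = 3.07e-05). Its late means were 0.1001 CPM (apical) and 104 CPM (body). NVE21815 had 1.64 and 0.468 CPM in the apical and 51.8 and 26.3 CPM in the body libraries (log2 fold change -5.09, SE 0.52, adjusted p = 9.11e-05), against late means of 0.0563 and 170 CPM.

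The other 3 showed no called difference in the mid-planula. NVE6370 had 3.48 and 3.58 CPM in the apical and 2.44 and 1.83 CPM in the body libraries (log2 fold change 0.72, 95% interval -0.49 to 1.94), and late means of 0.992 and 12.8 CPM. NVE253 had 17.3 and 23.0 CPM against 24.7 and 32.4 CPM (log2 fold change -0.51, 95% interval -1.15 to 0.13), and late means of 5.70 and 83.9 CPM. NVE3642 had 3.52 and 2.81 CPM against 7.07 and 7.62 CPM (log2 fold change -1.21, 95% interval -2.14 to -0.27, adjusted p = 0.165), and late means of 1.25 and 29.2 CPM. No gene passed the interaction test (edgeR) without apical replicate 1, without body replicate 1 or without body replicate 2, where 1363, 717 and 847 genes had an unadjusted p under 0.05, and 53 passed without apical replicate 2.

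**Figure D5:**
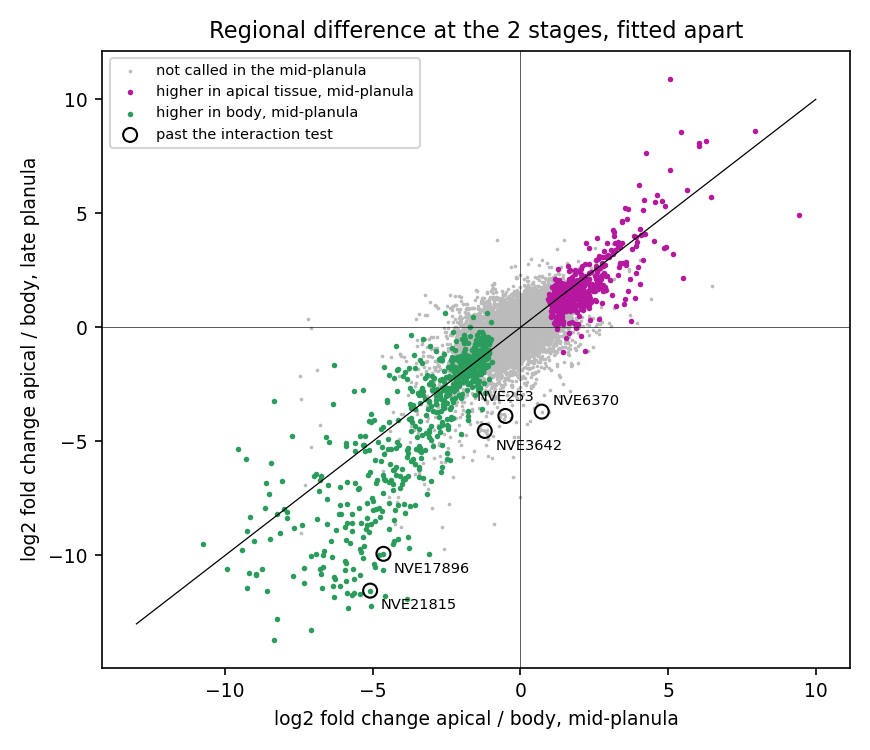
Log2 fold change of apical tissue over body in the mid-planula (x axis) and in the late planula (y axis), from separate fits of 4 and 6 libraries; each point is a gene tested in both fits, DEGs of the mid-planula are coloured by direction, and circles mark the 5 genes past the interaction test. Of the coloured genes 98.9% lie in the lower left or upper right quadrant, and the circled genes lie below the line of equal values.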

How the data were processed

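RNA-seq libraries of apical tissue and body were made with the SENSE mRNA-Seq kit and sequenced from both ends. By the methods, the authors trimmed the reads with Trimmomatic 0.36, mapped them with STAR and counted them on NVE gene models with HTSeq-count 0.6. They deposited raw counts per gene model without normalisation. The genome build is not given in the sources used here. How antisense, overlapping or near-identical models were counted is not described, so such genes are uncertain. Among counts of 1 to 20, 72.3% to 83.4% were even numbers per library. If both mates were counted, counting error is larger than the counts give.

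The 4 mid-planula libraries were fitted alone with edgeR 4.0.16 (quasi-likelihood test, TMM, filterByExpr with a minimum count of 10 and a minimum total of 15, Benjamini-Hochberg, adjusted p under 0.05, two-sided) in R 4.3.3. SEs were derived from the F statistic. CPM values are TMM-normalised. The chi-square of replicate counts over its degrees of freedom was 32.0 (apical) and 54.9 (body), above sampling noise, so all 4 were kept as separate libraries. Tests were tried on simulated data. Alternatives were DESeq2 1.42.0, limma-voom (limma 3.58.1), other scalings, filters and thresholds, halved counts, a fit of all 10 libraries, a replicate block and leaving out each library. The named genes were those of the study's marker and neural lists, the 2 largest and 2 smallest log2 fold changes among DEGs whose average log2 CPM reached 1 and whose tissues did not overlap, the 2 DEGs of the highest level per direction, and the genes past the interaction test. Members and lists were chosen with earlier results of these data known. Gene names are those of the study's text and figures and were not checked against an annotation. The reference table holds no NVE identifiers, so no coordinates or sequences are given.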

Additional observations from a re-analysis of the deposited data

Results flagged for a closer look

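The regional difference of 5 genes differed between the stages by the interaction test over all 10 libraries (edgeR, Benjamini-Hochberg adjusted). The log2 fold change of apical tissue over body was higher in the mid-planula than in the late planula by 4.40 for NVE6370 (adjusted p = 0.0144), by 5.28 for NVE17896 (adjusted p = 0.0144), by 3.35 for NVE253 (adjusted p = 0.0144), by 3.32 for NVE3642 (adjusted p = 0.0232) and by 6.46 for NVE21815 (adjusted p = 0.0445). For NVE17896 and NVE21815, the apical means at either stage were under 2 CPM. In the late apical libraries NVE17896 had 0.0680 to 0.151 CPM and NVE21815 had 0 to 0.101 CPM. The size of either difference thus rests on late apical values near 0.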

How the results depend on the processing

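With 2 libraries per tissue, the 1100 DEGs (507 apical, 593 body) stayed within 1.5 times under RLE or upper-quartile scaling, the DESeq2 Wald test (1406), limma-voom (1192), no filter (1589), at least 10 counts in every library (1031), halved counts, a log2 fold change of at least 1 and the fit of all 10 libraries (931). They were 600 (258 and 342) at an adjusted p under 0.01. Fits without 1 library found 839 to 1715 DEGs, 340 to 703 apical and 476 to 1012 body. With the replicate block there were 1941 (1009 and 932). The deviations of same-numbered libraries correlated at 0.170, a single value for both pairs by construction, and the sources do not say that the numbers mark pairs. The 5 interaction genes became 110 with the DESeq2 Wald test, 1 with limma-voom, 10 with no filter, 3 with at least 10 counts in every library, 45 with the replicate block and 0 to 53 without each mid-planula library. For the 3 fits with no such gene (edgeR), an unadjusted p under 0.05 was reached by 717 to 1363 genes. None of the 47 named genes changed direction in the 598 values fitted to them under 13 settings, and 38 kept their side of the threshold in every setting that tested them. With at least 10 counts in every library 12 of them were not tested, among them 3 spot genes and 2 gland markers, and NVE15507 was not tested with halved counts either. The 5 receptor or synthesis genes that were not called were all called with the replicate block and with no filter. Of the settings that tested them, 8 of 13 called NVE5469, 7 of 12 NVE19409, 5 of 12 NVE20518, 4 of 13 NVE3835 and 3 of 13 NVE18494. The share of body-enriched genes higher in apical replicate 1 was 76.9% with a late log2 fold change under -2 and 91.9% under -6, with medians of 3.70% and 0.322% in apical replicates 1 and 2 under -6, limits added after the values were seen.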
